A study of Mus musculus with 8 samples.

Results

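The Reg genes encode the regenerating family of secreted proteins, known in the pancreas as pancreatic stone protein and the pancreatitis-associated proteins. The family was taken by gene symbol, and all 6 members looked for (Reg1, Reg2, Reg3a, Reg3b, Reg3d and Reg3g) were among the 16888 genes of the table. RNA had been sequenced from the pancreas of 8 mouse samples, and all of them came from mice with acute pancreatitis after repeated cerulein, a secretagogue that drives acinar cells past their normal output. The 4 CKO samples (CKO1 to CKO4) had a myeloid-specific Anxa1 knockout, and the 4 WT samples (WT1 to WT4) were Anxa1 flox/flox. Annexin A1, the product of that gene, binds phospholipids and is known to dampen inflammation. The Cre driver, the strain, age and sex of the mice, the dose and timing of cerulein and any pooling of animals are not stated in the labels, and every sample analysed had received cerulein. Levels are RPKM, read counts scaled by gene length and by library total. Each level is thus relative to the total of its library, and comparisons between libraries depend on that scaling. Median centring and totals without acinar enzymes were among the other settings tried.

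Reg proteins are small secreted proteins with a C-type lectin fold. In the healthy pancreas acinar cells secrete Reg1, and in pancreatitis the Reg3 members and Reg2 are known to be induced in the same cells. Cytokines that signal through STAT3, such as those of the IL-6 family and IL-22, are known inducers. In the intestine Reg3b and Reg3g act against bacteria, and EXTL3 has been proposed as a receptor for Reg proteins.

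Before the Reg genes, the libraries were checked. Anxa1 was at 4.84, 4.76, 5.21 and 7.13 RPKM in CKO1 to CKO4, against 8.44, 14.7, 7.05 and 9.74 RPKM in WT1 to WT4 (log2 change -0.73, limma adjusted p = 0.0417). That call missed the threshold of 0.05 in 10 of 16 other settings, with a limma adjusted p of up to 0.108. Of these, 6 were among the 8 fits that left out 1 library, where it held without CKO4 and without WT3. It was also lost with no filter on low values (0.0932), with median centring (0.0899) and with limma-voom (0.0596). Library totals recovered from the values ran from 30469002 to 34359802 reads. All 27 measured acinar enzyme genes passed the filter on low values, and their summed level was 418061 to 485742 RPKM in CKO and 426337 to 463471 RPKM in WT, so the pancreas label fits these markers. WT2 stood apart by its adipocyte genes (136 RPKM summed over 6 genes, against 24.0 to 38.8 RPKM in the other 7 libraries) and its T, B and plasma cell genes (12.3 RPKM summed over 10 genes, against 0.148 to 4.64 RPKM). The part these cells played in the Reg levels of WT2 was not tested. No Reg gene passed with or without WT2, so there was no call to lose. Without WT2 the log2 change of every member moved upward, from -0.53 to -0.15 for Reg3a and from -0.48 to -0.16 for Reg3b.

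The 6 genes lie within 98.2 kb of mouse chromosome 6 (mm10, positions of GENCODE M21). Reg3b comes first (chr6:78370657-78373466, plus strand), followed by Reg3d (chr6:78375874-78378865, minus strand), Reg3a (chr6:78380709-78383827, plus strand), Reg2 (chr6:78395623-78408106, plus strand), Reg1 (chr6:78422711-78428667, plus strand) and Reg3g (chr6:78466269-78468872, minus strand). The transcripts of Reg1 and Reg2 were 79.7% identical over their aligned bases, and those of Reg3a and Reg3b 75.9%. The longest stretch that any 2 members shared exactly was 35 bases, between Reg3b and Reg3g, and 0 stretches of 50 bases were shared by any pair. The labels do not state the read length, so reads shared between members cannot be counted here.

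The promoters of 4 members are shown because their transcripts had the widest and the narrowest range of levels among the libraries (Reg2, Reg3a and Reg3b against Reg1). Each is the 250 bases before the RefSeq start of the gene (RefSeq, GRCm38.p6), read on the plus strand, at chr6:78404905-78405154 for Reg2, chr6:78380459-78380708 for Reg3a, chr6:78370635-78370884 for Reg3b and chr6:78425733-78425982 for Reg1. For Reg1, Reg2 and Reg3b the RefSeq start lies inside the GENCODE span given above, which holds the whole window of Reg1 and of Reg2 and most of that of Reg3b. Capitals mark matches on either strand to 4 patterns, so a match on the other strand appears as its reverse complement. The E-box CACCTG and the box spelled TTTCCC are known from the site bound by PTF1, the transcription factor complex of acinar cells. The pattern TTCNNNGAA is the core bound by STAT factors, and the fourth, TATAAAA, is a TATA box.
Reg2: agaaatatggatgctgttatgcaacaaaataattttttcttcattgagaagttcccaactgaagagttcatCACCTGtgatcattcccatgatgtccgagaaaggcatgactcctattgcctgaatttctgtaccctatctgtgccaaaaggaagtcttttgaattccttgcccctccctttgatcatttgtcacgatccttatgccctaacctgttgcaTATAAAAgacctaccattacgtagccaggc
Reg3a: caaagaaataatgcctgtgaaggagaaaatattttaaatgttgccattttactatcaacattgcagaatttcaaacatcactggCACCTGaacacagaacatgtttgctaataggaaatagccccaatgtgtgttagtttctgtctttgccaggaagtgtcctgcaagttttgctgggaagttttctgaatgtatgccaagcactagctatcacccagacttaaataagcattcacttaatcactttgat
Reg3b: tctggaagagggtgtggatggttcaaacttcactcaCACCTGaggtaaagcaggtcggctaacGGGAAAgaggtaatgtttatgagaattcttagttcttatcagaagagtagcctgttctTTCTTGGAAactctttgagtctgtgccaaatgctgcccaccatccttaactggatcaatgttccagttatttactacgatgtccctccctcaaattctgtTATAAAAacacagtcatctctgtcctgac
Reg1: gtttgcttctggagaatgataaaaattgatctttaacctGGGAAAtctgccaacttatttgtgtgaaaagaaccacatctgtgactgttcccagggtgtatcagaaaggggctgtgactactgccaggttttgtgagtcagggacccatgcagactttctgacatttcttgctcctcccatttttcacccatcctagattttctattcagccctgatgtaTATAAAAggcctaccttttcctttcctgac

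CACCTG was found in 4 of the 6 Reg promoters (Reg2, Reg3a, Reg3b and Reg3d), against 17.2% of the 32851 promoter windows of that length. TTTCCC was found in 4 (Reg1, Reg3b, Reg3d and Reg3g), against 21.9%, and TATAAAA in 4 (Reg1, Reg2, Reg3b and Reg3g), against 4.98%. TTCNNNGAA was found in 2 (Reg3b and Reg3d), against 7.02%, and in Reg3d it overlapped a TTTCCC match. Reg3b was the member with all 4 letter patterns. In Reg2, with the widest range of levels, and in Reg1, with the narrowest, TATAAAA began at the same position, base -30 from the start. A match is a description of the letters and was not tested as a binding site.

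Reg1, pancreatic stone protein, was the most abundant member in every library. It was at 12528, 11581, 13915 and 7795 RPKM in CKO1 to CKO4, against 10743, 12609, 11960 and 12127 RPKM in WT1 to WT4. CKO4 was the lowest library and CKO3 the highest, and the groups overlapped. Reg1 averaged 11455 ± 2621 RPKM over the CKO libraries and 11860 ± 793 RPKM over the WT libraries (SD, n = 4 each), a log2 change of -0.08 (SE 0.15, limma adjusted p = 0.770). The 95% interval of the log2 change ran from -0.41 to 0.25.

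Reg2, the closest relative of Reg1 in the mouse, had the widest range. It was at 4547, 4020, 5300 and 80.7 RPKM in CKO1 to CKO4, against 2106, 7916, 6144 and 8838 RPKM in WT1 to WT4. The lowest library, CKO4, was 110-fold below the highest, WT4, and the next lowest was WT1. The values of CKO1 to CKO3 lay above WT1 and below the other 3 WT libraries, so the groups overlapped. Means were 3487 ± 2331 RPKM in CKO and 6251 ± 2981 RPKM in WT (SD, n = 4 each). The log2 change was -1.71 (SE 1.50, limma adjusted p = 0.503), with a 95% interval from -5.34 to 1.92. The lowest value rested on 1769 reads, against 46528 to 186879 reads in the other 7 libraries, so counting error is small beside this range.

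Reg3b, the prototype pancreatitis-associated protein, was at 1013, 596, 1299 and 67.0 RPKM in CKO1 to CKO4, against 255, 1321, 566 and 1064 RPKM in WT1 to WT4. CKO4 and WT1 were again the lowest libraries, and the groups overlapped over most of their range. Means were 744 ± 536 RPKM in CKO and 801 ± 481 RPKM in WT (SD, n = 4 each; log2 change -0.48, SE 1.08, limma adjusted p = 0.809). Reg3a, a close relative of Reg3b, was at 161, 146, 339 and 7.45 RPKM in CKO1 to CKO4, against 30.9, 288, 142 and 226 RPKM in WT1 to WT4. It had the same 2 lowest libraries, and its log2 change was -0.53 (SE 1.34, limma adjusted p = 0.833). The 95% intervals were -3.08 to 2.11 for Reg3b and -3.78 to 2.72 for Reg3a.

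Reg3d, whose protein is related to the islet neogenesis-associated protein of the hamster, varied less. It was at 464, 390, 451 and 139 RPKM in CKO1 to CKO4, against 207, 360, 424 and 481 RPKM in WT1 to WT4. CKO4 and WT1 were the lowest here too, and the other 6 libraries lay within 1.34-fold of each other. Its log2 change was -0.10 (SE 0.42, limma adjusted p = 0.902; 95% interval -1.06 to 0.86). Reg3g, an antibacterial lectin of the gut, was the least abundant member, at 43.5, 18.3, 23.2 and 4.10 RPKM in CKO1 to CKO4, against 14.9, 25.0, 13.8 and 15.1 RPKM in WT1 to WT4. CKO4 was its lowest library, with 100 reads, and CKO1 the highest, while WT1 lay with WT3 and WT4. Its log2 change was 0.03 (SE 0.63, limma adjusted p = 0.984; 95% interval -1.45 to 1.50).

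**Figure D1:**
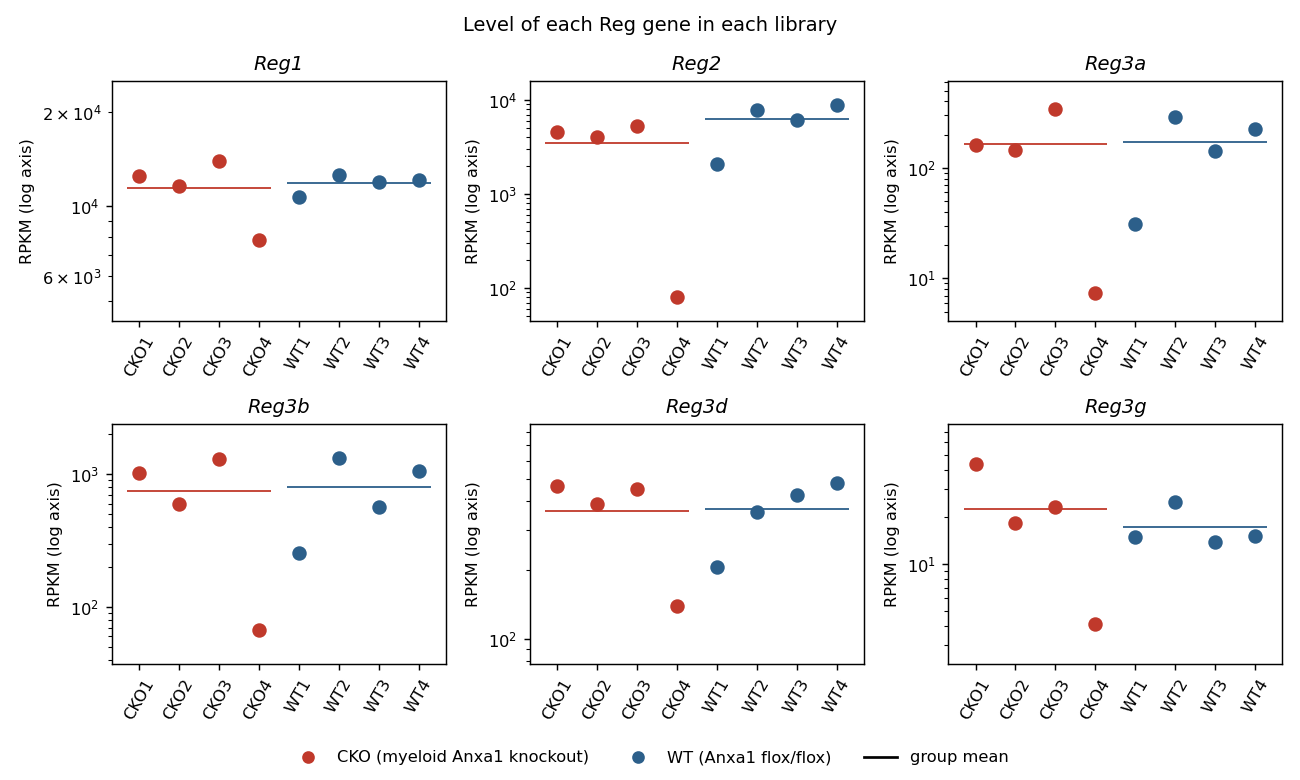
Level of each Reg gene in RPKM (log axis) in each library, with CKO1 to CKO4 in red, WT1 to WT4 in blue and a line at each group's arithmetic mean. CKO4 was the lowest library in all 6 panels, and WT1 the next lowest in 5 of them.

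In all, 0 of the 6 Reg genes passed the threshold (limma, adjusted p under 0.05 over 8513 tested genes), and 0 had an unadjusted p under 0.05. Of all tested genes 7.17% passed, and 27.3% had an unadjusted p under 0.05. The groups overlapped for all 6 members, whereas 18.7% of all tested genes had groups that did not overlap. The median log2 change was -0.29 over the 6 members and -0.12 over all tested genes. The intervals of Reg3a and Reg3b held changes of 2 log2 units in either direction, and that of Reg2 held a larger fall. With this spread, a difference of that size between CKO and WT was not detectable for these 3 genes.

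Leaving out CKO4 alone moved every member upward. The log2 change then became -0.26 for Reg2, 0.61 for Reg3a, 0.46 for Reg3b, 0.30 for Reg3d, 0.64 for Reg3g and 0.09 for Reg1, and 0 members passed (limma adjusted p of 0.213 to 0.779). CKO4 and WT1, the libraries with the lowest summed Reg level in their groups, were left out together as a setting chosen after the values were seen. Reg2 was then at 4020 to 5300 RPKM in CKO1 to CKO3, against 6144 to 8838 RPKM in WT2 to WT4 (mean 4623 ± 643 against 7633 ± 1369 RPKM, SD, n = 3 each). These ranges did not overlap, as was so for 24% of all tested genes in the same 6 libraries. Its log2 change was -0.72, and it did not pass (limma adjusted p = 0.0749). In that fit 110 genes (1.29%) passed, in place of 610 with all 8 libraries. Reg3a (-0.07), Reg3b (-0.0072), Reg1 (0.05) and Reg3d (0.05) were near 0, and Reg3g was at 0.58 (limma adjusted p = 0.361).

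**Figure D2:**
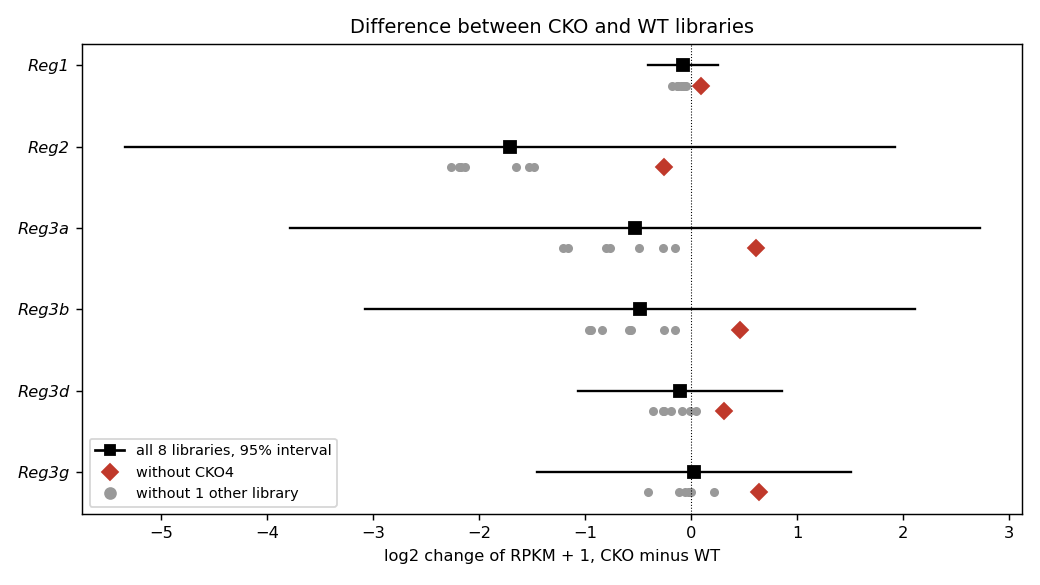
Log2 change of RPKM + 1, CKO minus WT, for each Reg gene: black squares with 95% intervals from all 8 libraries, red diamonds without CKO4, grey points without 1 other library. Every interval crosses 0, and without CKO4 the values of Reg3a, Reg3b, Reg3d and Reg1 lie on the other side of 0.

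These genes varied widely between libraries of the same group. Measured as the SD of log2(RPKM + 1) within groups, Reg2 had the largest spread of all 8513 tested genes (2.16), Reg3a the second largest (1.94) and Reg3b the fifth largest (1.56). Reg3g ranked 15 (0.97), Reg3d 41 (0.69) and Reg1 1700 (0.27), and the median gene had an SD of 0.19. Named after their values were seen, ranks 3 and 4 were held by Cfd (SD 1.81) and Car3 (1.67), genes of adipocytes that were highest in WT2, at 77.5 and 39.4 RPKM. Ranks 6 and 7 were held by Hspa1a (1.22) and Hspa1b (1.20), heat shock chaperones. Their pattern was another one, since CKO4 was their highest library (34.6 RPKM for Hspa1a and 45.5 RPKM for Hspa1b). The library that stood apart in CKO was CKO1, at 2.24 RPKM for Hspa1a and 3.39 RPKM for Hspa1b. CKO2 was at 22.3 and 32.6 RPKM, and CKO3 at 25.7 and 35.4 RPKM.

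**Figure D3:**
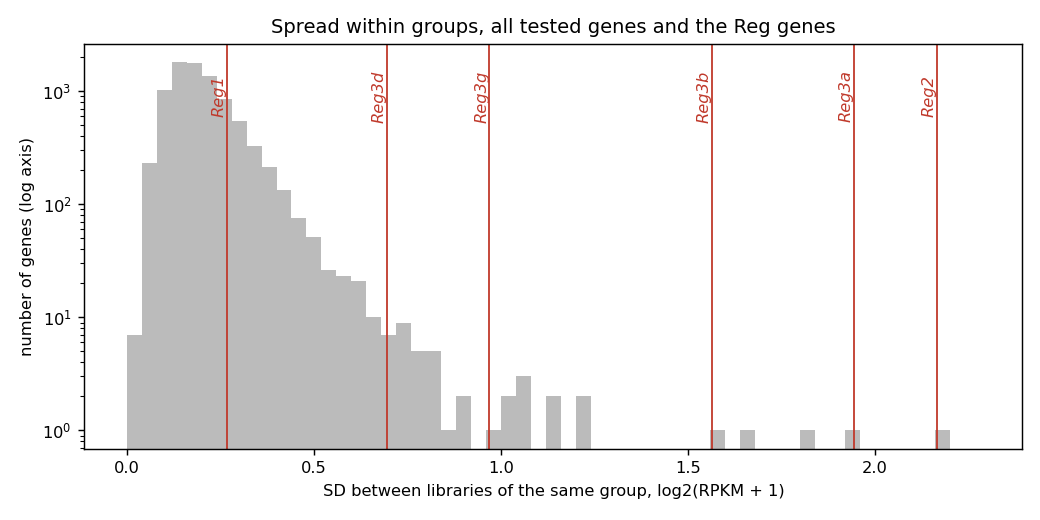
Number of tested genes (log axis) by the SD of log2(RPKM + 1) between libraries of the same group, with a red line at each Reg gene. Reg2, Reg3a and Reg3b lie at 2.16, 1.94 and 1.56, beyond the bulk of genes, and Reg1 lies at 0.27.

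Without CKO4 and WT1, the highest of the other 6 libraries was 2.20 times the lowest for Reg2, 2.39 times for Reg3a, 2.34 times for Reg3b and 3.16 times for Reg3g. The mean of CKO1 to CKO3 was 57.3 times the level in CKO4 for Reg2, 28.9 times for Reg3a, 14.5 times for Reg3b, 6.92 times for Reg3g, 3.12 times for Reg3d and 1.63 times for Reg1. A ratio of at least 10 was found for 7 of the 8513 tested genes, and 3 of the 7 were Reg genes. The other 4 (Bmp8a, Bmyc, Ear2 and Noxa1) were named after their values were seen. All 6 members were lowest in CKO4, as were 35.0% of all tested genes. The mean of WT2 to WT4 over the level in WT1 was 7.07 for Reg3a, 3.87 for Reg3b, 3.63 for Reg2, 2.04 for Reg3d, 1.21 for Reg3g and 1.14 for Reg1. Reg2 was thus the member furthest down in CKO4, and Reg3a in WT1. A ratio of at least 3 in WT1 was found for 12 tested genes, of which 3 were Reg genes.

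The makeup of the family differed in these libraries as well as its sum. The 6 genes summed to 18756, 16751, 21328 and 8094 RPKM in CKO1 to CKO4, against 13356, 22519, 19251 and 22750 RPKM in WT1 to WT4. Reg1 made up 66.8%, 69.1%, 65.2% and 96.3% of that sum in CKO1 to CKO4, against 80.4%, 56.0%, 62.1% and 53.3% in WT1 to WT4. Reg2 made up 1.00% of the sum in CKO4 and 15.8% in WT1. It made up 24.0 to 24.9% in CKO1 to CKO3, against 31.9 to 38.8% in WT2 to WT4. By level the order was Reg1, Reg2, Reg3b, Reg3d, Reg3a and Reg3g in 7 of the 8 libraries. In CKO4 Reg3d came second, ahead of Reg2 and Reg3b.

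The enzymes that acinar cells secrete were not low in CKO4 as a group. The 27 acinar enzymes summed to 485742, 440571, 418061 and 474974 RPKM in CKO1 to CKO4, against 448424, 444218, 426337 and 463471 RPKM in WT1 to WT4. CKO4 had the second highest sum of all libraries, and 4 of the 27 enzymes were lowest there. Between the groups 2 of the 27 rose (Prss3 and Pnliprp2) and 3 fell (Amy2a5, Amy2b and Cela3a), where 1.42% of all tested genes rose and 5.74% fell. The amylase genes form a cluster of close copies, so the values of Amy2a5 and Amy2b are uncertain where reads could be split among them. Without 1 library, the call of Cela3a was lost in 8 of 8 fits and that of Pnliprp2 in 7. Over the same libraries Reg2 and the Reg3 genes together were at 6228, 5170, 7413 and 299 RPKM in CKO1 to CKO4, against 2613, 9910, 7290 and 10624 RPKM in WT1 to WT4. In whole tissue, fewer cells of a type and less RNA per cell cannot be told apart.

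**Figure D4:**
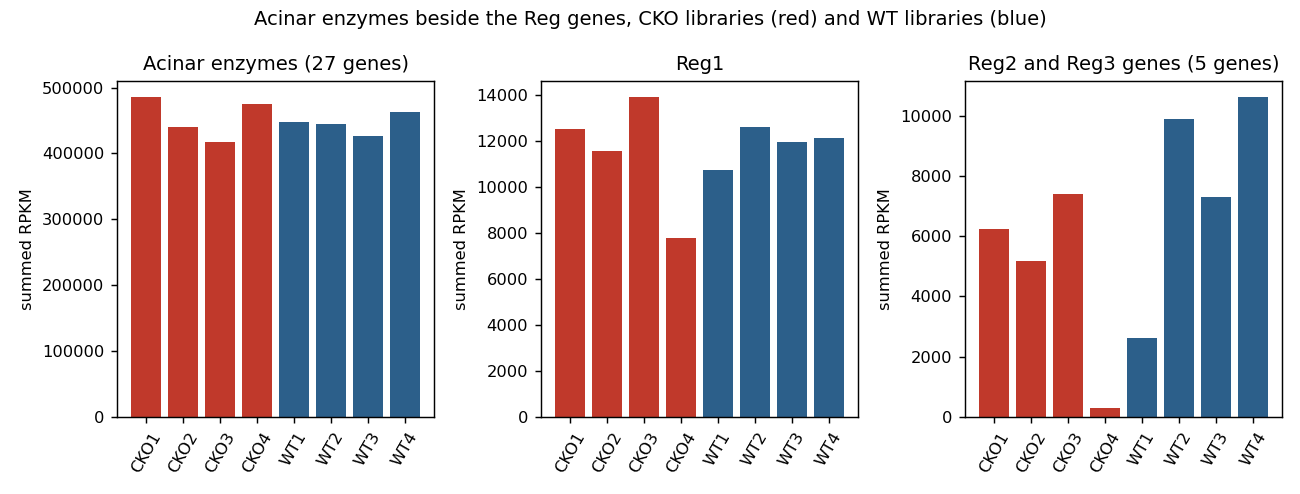
Summed RPKM in each library (CKO in red, WT in blue) of 27 acinar enzyme genes, of Reg1, and of Reg2 with the 4 Reg3 genes. In CKO4 the acinar enzymes stood at 474974 RPKM and Reg2 with the Reg3 genes at 299 RPKM.

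Markers of other cells were compared over the same libraries. Intestinal epithelium, where Reg3 genes are abundant, is marked among others by Alpi, Muc2 and Lct, which were at or below 0.0133 RPKM in every library. Of the same list, Vil1 was at 0.171 to 0.906 RPKM and Defa24 reached 1.64 RPKM (in WT4). The 9 intestinal genes measured of 13 summed to 5.64 RPKM in CKO4, the library lowest in Reg, and to 0.648 to 2.34 RPKM in the other 7. Most of the sum in CKO4 was Apoa1 (3.43 RPKM) and Apoa4 (1.48 RPKM). In the other 7 libraries these were at or below 0.0592 RPKM and 0.0176 RPKM. Duct genes (10 of 10 measured) summed to 7256, 7743, 8696 and 6078 RPKM in CKO1 to CKO4, against 8273, 7625, 8300 and 8002 RPKM in WT1 to WT4, so CKO4 was the lowest there as well. Of the 9 duct genes tested 0 rose and 1 fell (Sox9), where 1.42% of all tested genes rose and 5.74% fell. Macrophage and neutrophil genes summed to 177 to 391 RPKM in CKO and 389 to 668 RPKM in WT, with CKO4 (314 RPKM) and WT1 (397 RPKM) within the range of their groups, and 0 of 13 tested rose and 2 fell (Ccr2 and Tyrobp). Islet genes summed to 1312 to 2061 RPKM in CKO and 862 to 1653 RPKM in WT, and 1 of 8 rose (Gcg). These counts are read against the same shares of all tested genes. The median log2 change was -0.41 for duct, -0.60 for macrophage and neutrophil and 0.46 for islet genes, against -0.12 for all tested genes. Without 1 library, the calls of Gcg, Ccr2 and Tyrobp were each lost in 6 of 8 fits and that of Sox9 in 3. The part of duct cells in the Reg levels was not tested.

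Within the family, levels moved together across the libraries, but for several members many genes outside the family were more alike (ranks below). Of the 15 pairs, Reg3a and Reg3b were closest (Pearson r = 0.99, Spearman rho = 0.98 of log2(RPKM + 1) over 8 libraries; exact two-sided permutation p = 7.44e-05 and 0.000397, or 0.00112 and 0.00595 adjusted over the 15 pairs). Their r without CKO4 and WT1 was 0.88. Over all pairs r ran from 0.77 to 0.99, with 14 adjusted exact permutation p under 0.05 for r and 3 for rho. Without CKO4 and WT1, the libraries farthest from the median for every first gene of a pair except Reg1, only 3 pairs kept an r of at least 0.7, those among Reg1, Reg3a and Reg3b, and Reg2 with Reg3g turned to -0.38. The r of the other 12 pairs, over both groups together, was thus under 0.7 without those 2 libraries. With each group's mean subtracted, Reg2 still had an r of 0.83 with Reg3a and 0.89 with Reg3b without them. The rest of the 12 pairs stayed under 0.7 by that measure too. All levels of a library share 1 total, so they are not independent of each other.

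Genes outside the family were ranked by the same likeness, after each group's mean had been subtracted, among tested genes with a mean of at least 5 RPKM (8 libraries, given as a description). For Reg2 the most alike were Smagp (r = 0.99), Psmg2 (0.99) and Rassf7 (0.99), for Reg3b Ube2q1 (0.97), Hnrnpdl (0.97) and the lysosomal protease Ctsl (0.96), and for Reg3a Spint1, Tmed10 and Mturn (0.98 each). For Reg1 they were Ctsl (0.99), Tnfaip8 (0.98) and Trappc4 (0.98), for Reg3d Churc1 (0.98), Psmg2 (0.97) and Spcs3 (0.96), and for Reg3g Tmem102 (1.00), Serpinb1a (0.99) and Hmgcs1 (0.98). All of these genes were lowest in CKO4, like the Reg genes. The same r without CKO4 and WT1 was 0.68 to 0.99 for all pairs named except Reg3d with Psmg2 (0.60) and with Spcs3 (0.09). Smagp was at 7.35, 7.02, 6.99 and 2.34 RPKM in CKO1 to CKO4, against 7.81, 9.98, 9.39 and 10.7 RPKM in WT1 to WT4. Ctsl was at 313, 292, 341 and 182 RPKM in CKO1 to CKO4, against 520, 602, 555 and 593 RPKM in WT1 to WT4. Reg3b was the most alike of the 4064 genes ranked for Reg3a, and Reg3a for Reg3b. Other members ranked lower. For Reg1, Reg2 ranked 8, Reg3b 11, Reg3a 21, Reg3d 110 and Reg3g 182. Reg3g ranked 263 for Reg3a, and Reg3d 261 for Reg3g.

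Of the known upstream pathway, 22 genes of the IL-6 and IL-22 families and STAT3 signalling were in the table and 18 were tested. Of these 1 rose and 1 fell, read against the same shares of 1.42% and 5.74%. The list median was -0.11, against -0.12 for all tested genes. The cytokine Lif, which signals through gp130 like IL-6, was at 6.64, 9.29, 12.1 and 17.2 RPKM in CKO1 to CKO4, against 3.59, 1.87, 4.86 and 4.06 RPKM in WT1 to WT4. Every CKO library was above every WT library (log2 change 1.40, limma adjusted p = 0.0166), and CKO4, the library lowest in Reg, was the highest in Lif. Without CKO4 and WT1 together Lif missed the threshold (limma adjusted p = 0.0895).

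Il22ra1, the receptor chain through which epithelial cells respond to IL-22, was at 6.09, 5.63, 6.57 and 6.25 RPKM in CKO1 to CKO4, against 9.41, 9.99, 10.1 and 6.94 RPKM in WT1 to WT4. It fell (log2 change -0.49, limma adjusted p = 0.0413), but that call was lost in 11 of 16 other settings, 6 of them fits without 1 library (CKO1, CKO2, CKO4, WT1, WT2 or WT3; adjusted p of up to 0.113). Il22 itself was listed at 0 in every library but WT2 (0.0222 RPKM). Il6 was at 0.154 to 1.10 RPKM in CKO and 0.345 to 0.546 RPKM in WT, below the filter. Stat3 was at 17.4, 22.3, 20.2 and 20.8 RPKM in CKO1 to CKO4, against 17.4, 17.7, 21.6 and 14.9 RPKM in WT1 to WT4 (log2 change 0.17, limma adjusted p = 0.417). Socs3, its feedback inhibitor (singled out with the values known), stood at 23.6 RPKM in CKO4 and 16.2 RPKM in WT1, and ran from 14.1 to 23.6 RPKM in CKO and from 16.2 to 20.4 RPKM in WT. Cebpb, a transcription factor of the acute-phase response, was at 45.0 ± 15.8 RPKM in CKO and 21.7 ± 4.83 RPKM in WT (SD, n = 4 each; limma adjusted p = 0.0574), with its highest value, 58.4 RPKM, in CKO4. Il11ra1, a receptor of IL-11, was at 4.32 ± 0.129 RPKM in CKO and 5.21 ± 0.340 RPKM in WT (SD, n = 4 each; limma adjusted p = 0.198).

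The proposed receptor Extl3 was measured at 7.84, 8.52, 8.40 and 8.46 RPKM in CKO1 to CKO4, against 8.58, 10.1, 9.77 and 5.91 RPKM in WT1 to WT4 (log2 change -0.02, limma adjusted p = 0.947). Of the 4 genes tested in its list 0 passed. Of 12 tested genes for other secreted injury and acute-phase proteins 1 rose and 1 fell, against 1.42% and 5.74% of all tested genes. The list median was -0.37, against -0.12 for all tested genes. Wfdc2, a secreted protease inhibitor-like protein, rose (4.40 ± 0.232 RPKM in CKO and 0.896 ± 0.305 RPKM in WT; limma adjusted p = 2.63e-05). Spink1, the acinar trypsin inhibitor, fell (890 ± 71.0 RPKM in CKO and 1346 ± 80.6 RPKM in WT; limma adjusted p = 0.00551). In CKO4 Spink1 was at 938 RPKM, the highest of the CKO libraries. Clu, the stress-induced chaperone clusterin, was at 2546, 1762, 1674 and 939 RPKM in CKO1 to CKO4, against 2373, 3297, 2387 and 2703 RPKM in WT1 to WT4 (limma adjusted p = 0.101), with CKO4 the lowest. Saa3, a serum amyloid of inflamed tissue, was at 40.0 ± 25.3 RPKM in CKO and 164 ± 138 RPKM in WT (SD, n = 4 each; limma adjusted p = 0.0931). The WT mean rested largely on WT2 (369 RPKM, against 88.0, 123 and 76.6 RPKM in WT1, WT3 and WT4). The highest CKO library for Saa3 was CKO4 (77.5 RPKM).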

How the data were processed

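RNA was measured by sequencing in 8 pancreas samples, 4 per group. The authors deposited 1 table of RPKM values by gene symbol, with no unit in its header. The unit was read from the numbers: among 16068 genes detected in 2 or more libraries, 16059 (99.94%) behaved like whole counts, that is, some gene length gave whole reads in every library within 0.05 reads. All 6 Reg genes did so. The build was mm10, per the submitters' processing notes, with no aligner, counter or annotation named there. An unnamed column of 8 numbers was not used (1 column). Whether the replicates were separate animals is not stated, so p-values measure the spread between samples.

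The filter kept genes reaching 1 RPKM in 4 or more libraries (8513, all 6 Reg genes among them), which were fitted with limma 3.58.1 in R 4.3.3 on log2(RPKM + 1), using a 2-group design and moderated variances (robust, with a trend on the mean). P-values were adjusted by Benjamini and Hochberg's method across the 8513 genes and read at 0.05. Log2 changes are CKO minus WT on that scale, which understates changes of low genes. Correlations, transcript alignments and plots used Python 3.11.15, SciPy 1.17.1, Biopython 1.88 and Matplotlib 3.10.9. The members and gene lists were chosen with earlier results of these data known. Of each list, up to 4 genes with the smallest p could be named, with Stat3, Il6, Il22 and Extl3; Pnliprp2 was added beyond that rule after its value was seen to complete a count. The 3 most alike genes per member were taken by a fixed rule. Both the read recovery and the fit were tested on simulated data. The simulated reads for the fit had the same dispersion setting for every gene and no outlying library. That test therefore does not cover genes with a spread like that of Reg2. The other settings were a pseudocount of 0.1, no filter, variances without a trend, a replicate block, median centring, totals without acinar enzymes, limma-voom on the recovered reads and leaving out libraries.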

Additional observations from a re-analysis of the deposited data

Results flagged for a closer look

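In CKO4, Reg2 stood far below the other CKO libraries, at 80.7 RPKM against 4020 to 5300 RPKM in CKO1 to CKO3. The gap to the nearest library was 0.934 of the whole range on the log2(RPKM + 1) scale, above the 95% critical value of Dixon's test for 4 samples. Reg3d did so in the same library, at 139 RPKM against 390 to 464 RPKM in CKO1 to CKO3 (0.856 of the range). Reg3g stood apart in WT2, at 25.0 RPKM against 13.8 to 15.1 RPKM in WT1, WT3 and WT4 (0.849 of the range). These were 3 of 12 groups of values examined, and chance flags about 1 in 20 independent groups. The 12 groups are not independent, since the 6 genes were measured in the same 8 libraries and moved together, and 2 of the 3 values come from CKO4.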

How the results depend on the processing

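With all 8 libraries and in each of the 16 other settings, 0 Reg genes passed the threshold, with limma adjusted p of at least 0.0749. Reg2 kept its direction in all 16. With median centring, which took the all-gene median of the log2 change to -0.02 in place of -0.12, Reg1 became 0.024 and Reg3d 0.00081. With a pseudocount of 0.1 Reg3g became -0.0040. Without CKO4 and WT1 together Reg1 became 0.048 and Reg3d 0.051. The fits without 1 library ran from -0.18 to 0.094 for Reg1, from -2.26 to -0.26 for Reg2, from -1.21 to 0.61 for Reg3a, from -0.96 to 0.46 for Reg3b, from -0.36 to 0.30 for Reg3d and from -0.41 to 0.64 for Reg3g. The changes of direction were all of values that did not pass, and the cause was not tested.

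The 610 genes past the threshold became 223 to 705 in the fits without 1 library: 235 without CKO2, 279 without CKO4, 223 without WT1, 271 without WT2, 326 without WT3 and 280 without WT4. Without CKO4 and WT1 together 110 passed. Median centring left the number at 572 but turned 121 higher and 489 lower genes into 305 and 267. No pairing of libraries by equal replicate numbers was visible (correlations of deviations -0.12, -0.32, 0.14 and 0.03), and 1 of the 4 CKO libraries correlated best with its own number. These values cannot show whether the samples were handled in pairs. With the replicate block 548 genes and 0 Reg genes passed. With limma-voom on the recovered reads 423 genes and 0 Reg genes passed. The lowest Reg value rested on 100 reads.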
